A study of Sus scrofa with 80 samples.

Results

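The adenohypophysis, the anterior lobe of the pituitary gland, was compared between 9 boars and 7 gilts. The arrays were the 16 of 80 in the series whose titles name this tissue, and the sex was read from the same titles. Hypothalamus, thyroid gland, backfat and gonads of the same 16 pigs were also hybridised, with 1 Affymetrix Porcine GeneChip per pig and tissue, to set the differences between breeds and sexes side by side. Duroc, Iberian and Large White pigs comprised 2 boars and 2 gilts each. Youli pigs, a cross with a Sino-European hybrid line, comprised 3 boars and 1 gilt. The breeds were slaughtered at mean ages of 83 days (Duroc), 89 days (Iberian), 87 days (Large White) and 80 days (Youli), when pigs are sexually immature, at mean weights of 23.1, 17.4, 27.2 and 18.9 kg. Ages and weights were given by breed and not by sex, and no litters were given. The pigs came from 3 breeding companies and were moved to university farms at weaning. From then on all were housed over the same period on the same diets and fasted before slaughter, and none had a treatment or a transgene. The whole gland was taken after the neurohypophysis had been removed.

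The adenohypophysis holds several types of endocrine cells. Gonadotrophs release the gonadotropins FSH and LH, which share the alpha subunit CGA and differ in their beta subunits, FSHB and LHB. Pulses of hypothalamic GnRH drive both hormones, activin raises FSHB and inhibin from the gonads lowers it, and sex steroids feed back on the whole axis. Somatotrophs, lactotrophs and thyrotrophs depend on the transcription factor POU1F1, and corticotrophs make the precursor POMC, which the convertase PCSK1 cleaves.

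Values are log2 GCRMA signals, and a difference is boars minus gilts, adjusted for breed, with its SE. The 7 hormone genes measured had means between 11.9 and 15.8 in the adenohypophysis and of at most 5.08 in the other 4 tissues. The neurohypophyseal genes AVP and OXT were near the lowest values of the array in most pigs, AVP with a median of 1.94 in gilts and 1.88 in boars. EIF1AY, a Y-linked translation factor, was between 10.36 and 10.61 in the boars and between 2.72 and 2.99 in the gilts, so each array matched the sex in its title. Array medians lay between 4.74 and 4.95 in boars and between 4.79 and 4.94 in gilts. Of the probesets, 42.9% had a mean under log2 4, where GCRMA compresses differences. The whole gland was hybridised, so fewer cells of a type and less RNA per cell cannot be told apart.

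Few autosomal genes differed by sex in the adenohypophysis, and most of those were higher in gilts. Of 6461 autosomal genes with a single symbol, 39 (0.604%) differed by sex at an adjusted p under 0.05 in limma, with Benjamini-Hochberg adjustment over 23999 probesets. Of these, 33 (0.511% of the autosomal genes) were higher in gilts and 6 (0.0929%) higher in boars. Each gene was represented by its probeset of highest mean. The median size was log2 0.69 in the former, and HYAL3 was farthest apart (-4.44), while the latter ran from 0.18 to 0.65. All 11 genes that were more than log2 1 apart were higher in gilts. In 18 of the 33 every boar lay below every gilt, and 23 of the 6461 autosomal genes (0.356%) had that order. None of the 6 had all boars above all gilts, nor had any other autosomal gene. At an unadjusted p under 0.05 there were 647 autosomal genes (10%), 254 (3.93%) higher in boars and 393 (6.08%) higher in gilts, and a refit of the variance model used in the study, called the z-score model here, called 80 (1.24%). Counts of these kinds for gene lists are to be read against these shares. Of all 23999 probesets 120 (0.5%) differed, 23 (0.0958%) higher in boars and 97 (0.404%) higher in gilts. They included 71 with no single symbol, which cannot be described by gene here.

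**Figure D1:**
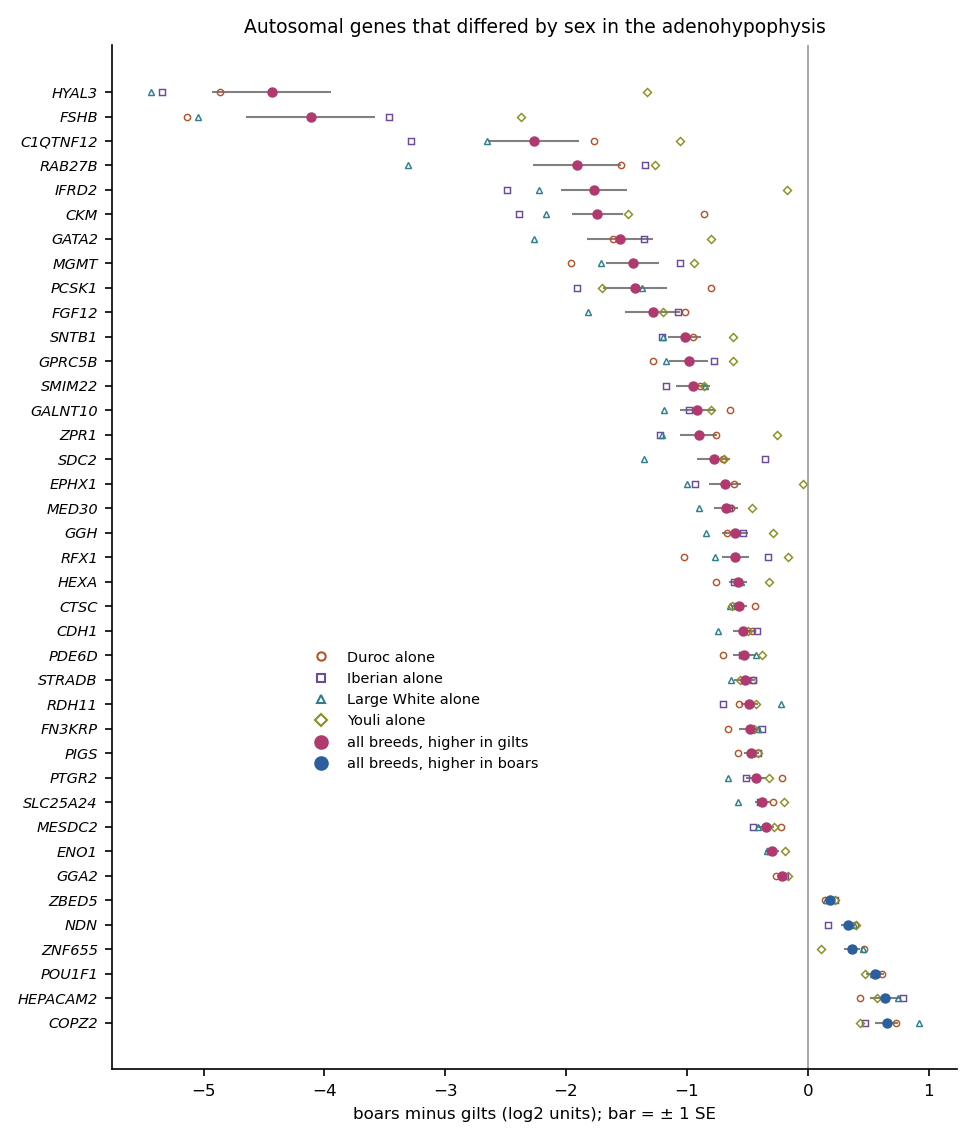
Boars minus gilts in the adenohypophysis for the 39 autosomal genes that differed by sex, in log2 units. Filled points with bars are the breed-adjusted difference ± 1 SE over 9 boars and 7 gilts, and open symbols are the difference within each breed. HYAL3 and FSHB stand more than log2 4 below zero, the 6 genes higher in boars are all under log2 1, and the open symbols of Youli, with 1 gilt, are often nearest to zero.

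The 39 genes rest on few pigs, and how firmly each stands differs. When each pig was left out in turn, 16 of the 39 passed the threshold in every fit: FSHB, HYAL3, IFRD2, CKM, MGMT, SNTB1, GALNT10, SMIM22, MED30, HEXA, CTSC, RDH11, PIGS, SLC25A24, COPZ2 and POU1F1. Another 15 passed in fewer than 8 of the 16 fits. No difference changed its sign in any alternative run. The number of autosomal genes fell from 39 to between 20 and 25 without DUM15 (20), DUF14 (21), IBM24 (21), LWF05 (22), LWM02 (23) or DUM12 (25). Pigs are named here by breed (DU, IB, LW, YL), sex (M or F) and number.

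Of the gonadotropin subunits, FSHB was far higher in gilts, and the other genes did not pass the test. FSHB was between 13.15 and 14.61 in the gilts, with a median of 14.28, and between 7.71 and 11.95 in the boars, with a median of 10.59. Every gilt was above every boar, and the gap between the lowest gilt, YLF21 at 13.15, and the highest boar, YLM19 at 11.95, was over log2 1. The difference was -4.11 (SE 0.54, adjusted p = 0.00397 from limma), 17.3-fold higher in gilts with a 95% interval from 7.7 to 38.9. A second probeset for FSHB gave -4.52 (SE 0.51, adjusted p = 0.00154). Boars varied more than gilts, with an SD of 1.29 against 0.51. Without LWM02, the boar with the lowest value, the difference was -3.70, and without YLF21 it was -4.55.

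LHB and CGA, the other gonadotropin subunits, did not pass the test. LHB was between 13.27 and 13.92 in gilts (median 13.50) and between 13.26 and 13.74 in boars (median 13.64), and the groups overlapped throughout. Its difference was 0.03, with a 95% interval from -0.17 to 0.22 (adjusted p = 1 from limma). CGA differed by -0.07, with an interval from -0.23 to 0.10. Neither interval reached that of FSHB, which ended at -2.94. Of the 7 hormone genes, FSHB alone passed (14.3%, against 0.604% of the autosomal genes), and the list had a median of 0.03. The others were GH1, encoding growth hormone (0.12, SE 0.07), prolactin PRL (0.11, SE 0.07), POMC (0.12, SE 0.11) and TSHB, the beta subunit of thyrotropin (-0.58, SE 0.48). TSHB was at least 12.16 in the gilts and down to 10.19 in the boars, while the medians, 12.76 and 12.95, were close. GH1 reached 16.04 in the highest boar.

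**Figure D2:**
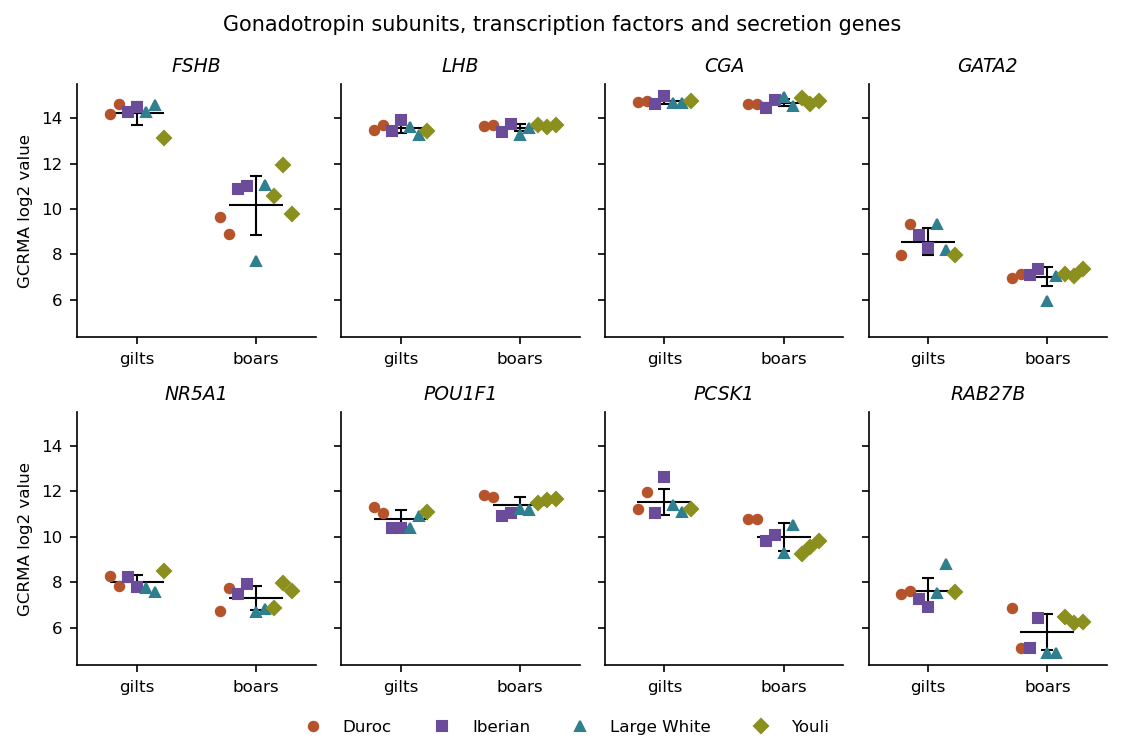
GCRMA log2 value of 8 genes in each of 7 gilts and 9 boars, 1 point per pig, with symbols for the breed and a bar at the mean ± 1 SD. FSHB, GATA2, PCSK1 and RAB27B do not overlap between the sexes, LHB and CGA overlap, and POU1F1 is higher in boars within each breed although the groups overlap.

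Among transcription factors of the pituitary lineages, one of the gonadotroph and one of the somatotroph side passed the test in opposite directions. GATA2, which acts in gonadotrophs and thyrotrophs, was between 7.98 and 9.33 in gilts (median 8.30) and between 5.97 and 7.36 in boars (median 7.09). All gilts were above all boars, and the lowest boar was LWM02, which also had the lowest FSHB. The difference was -1.55 (SE 0.27, adjusted p = 0.0269 from limma), or 2.94-fold. The adjusted p of GATA2 ran from 0.0230 to 0.0680 when 1 pig was left out, and was above 0.05 without DUF14, IBF22, DUM12, DUM15, IBM23 or IBM24. A dimmer GATA2 probeset with a mean of 2.92 gave -0.34 (SE 0.23, adjusted p = 0.973), and the mean over both gave -0.94 (adjusted p = 0.0252).

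POU1F1, the factor that activates growth hormone, prolactin and TSHB, was higher in boars. It was between 10.38 and 11.32 in gilts (median 10.92) and between 10.90 and 11.84 in boars (median 11.47). The groups overlapped across breeds, but boars were higher in each, by 0.62 in Duroc, 0.57 in Iberian, 0.54 in Large White and 0.47 in Youli pigs. The breed-adjusted difference was 0.56 (SE 0.07, adjusted p = 0.00381 from limma). It passed with each pig left out, but not without breed in the fit, with breed as a random block, in the z-score model or as the mean over its probesets. A pair of further POU1F1 probesets with means of 8.80 and 8.98 gave 0.73 and 0.55 and did not pass, and its remaining 2 were near the lowest values. NR5A1, which marks the gonadotroph lineage, was between 7.55 and 8.50 in gilts and between 6.68 and 7.96 in boars, a difference of -0.75 (SE 0.20, adjusted p = 0.185). Of 11 factors measured, GATA2 and POU1F1 passed in limma, and the list had a median of -0.01. At an unadjusted p under 0.05, 1 was higher in boars and 2 higher in gilts, against 3.93% and 6.08% of all autosomal genes. The z-score model called 2, EGR1 and GATA2. FOXL2 and NEUROD1 were near the lowest values in every pig, so nothing can be said of them.

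No gene of the signals that reach the gonadotroph passed the test. The GnRH receptor GNRHR was between 5.37 and 8.43 in gilts and between 4.66 and 7.66 in boars, a difference of -0.55 (SE 0.41, adjusted p = 1). In limma 0 of 17 hypophysiotropic receptors, 0 of 32 GnRH signalling genes and 0 of 28 activin, inhibin and BMP genes passed, with medians of 0.01, 0.04 and -0.06. Of the lists, 11, 9 and 12 genes had a mean under log2 4, so for these, most of the receptors, a difference could be missed. At an unadjusted p under 0.05 these lists had 1, 4 and 3 members, against 10% of all autosomal genes, and the z-score model called 1, 2 and 0. ACVR1B, the type I receptor through which activin signals, came nearest. It was between 8.34 and 8.61 in gilts (median 8.51) and between 7.61 and 8.36 in boars (median 7.82), and only LWM04 among the boars reached the range of the gilts. Its difference was -0.57 (SE 0.11, adjusted p = 0.0542), and it passed in 6 of 26 alternatives. SMAD4, the shared mediator of activin and BMP signals, differed by -0.27 (SE 0.09, adjusted p = 0.410), and the BMP target ID1 by -0.41 (SE 0.16, adjusted p = 0.530). The inhibin and activin subunits INHA and INHBB and the activin antagonist FST were near the lowest values in both sexes.

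The steroid receptors ESR1 and PGR varied widely between pigs. ESR1, the estrogen receptor alpha, was between 6.28 and 8.06 in gilts (median 7.12) and between 4.14 and 7.04 in boars (median 5.92), a difference of -1.28 (SE 0.37, adjusted p = 0.271). PGR, the progesterone receptor, was near 2 in 6 gilts and at 3.01 in YLF21, while the boars ranged from 1.98 to 7.91 with a median of 3.48. The PGR difference of 1.99 had an SE of 0.88 and did not pass (adjusted p = 0.637 from limma). The SD was 2.33 in boars and 0.38 in gilts. Of 28 genes for steroid receptors and steroid metabolism 0 passed in limma, 2 had an unadjusted p under 0.05 (ESR1 and PGR), and the z-score model called the same pair. A mean under log2 4 was found for 14 of the 28.

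Hormone processing and secretion differed at single genes. PCSK1, the prohormone convertase that opens precursors such as POMC in secretory granules, was between 11.06 and 12.64 in gilts (median 11.24) and between 9.24 and 10.80 in boars (median 9.80). All gilts were above all boars, with the 2 Duroc boars nearest to the gilts. The difference was -1.43 (SE 0.27, adjusted p = 0.0385 from limma), or 2.69-fold. With 1 pig left out the adjusted p ran from 0.0273 to 0.126 and stayed under 0.05 in 4 of 16 fits (without DUF13, IBF22, IBF25 or LWM04). PCSK1 was thus near the threshold, while its groups did not overlap.

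None of the other processing genes passed in limma. Of 29 genes for prohormone processing and the secretory granule, PCSK1 alone passed (3.45%), and the median was -0.01. At an unadjusted p under 0.05, 2 were higher in boars and 4 higher in gilts, against 3.93% and 6.08% of all autosomal genes. The z-score model called 2, PCSK1 and the calcium-binding protein SCGN. The convertase inhibitor PCSK1N differed by -0.12 (SE 0.15), the amidating enzyme PAM by -0.09 (SE 0.08), the granule proteins CHGB and SCG5 by -0.01 (SE 0.09) and 0.07 (SE 0.07). The convertase PCSK2 was dim in both sexes, with medians of 3.75 in gilts and 4.16 in boars. QPCT, which forms the pyroglutamate end of peptides such as GnRH and TRH, was between 10.47 and 11.24 in gilts and between 9.92 and 10.69 in boars, a difference of -0.54 (SE 0.14, adjusted p = 0.163). KDELR3, a retrieval receptor of the endoplasmic reticulum, ran the other way, by 0.29 (SE 0.07, adjusted p = 0.137).

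RAB27B, a small GTPase that docks secretory granules at the membrane, was the only 1 of 15 exocytosis genes that passed (6.67%). It was between 6.91 and 8.82 in gilts (median 7.54) and between 4.86 and 6.87 in boars (median 6.18). The groups did not overlap, though the margin between LWF06 and the other gilts was wider than that between the sexes. The difference was -1.91 (SE 0.37, adjusted p = 0.0469 from limma), or 3.75-fold. Leaving out 1 pig kept it under 0.05 in 3 of 16 fits (without LWF06, DUM12 or IBM24), with adjusted p values from 0.0284 to 0.114. The SNARE protein SNAP25 lay in the opposite direction, between 11.86 and 12.14 in gilts and between 12.11 and 12.37 in boars. Its difference of 0.23 (SE 0.05, adjusted p = 0.0800) was small and did not pass, nor did that of the SNARE-dissociating ATPase NSF (0.30, SE 0.07, adjusted p = 0.136). At an unadjusted p under 0.05 the exocytosis list had 2 members higher in boars and 1 higher in gilts. Among all autosomal genes these shares were 3.93% and 6.08%, and of the list the z-score model called RAB27B alone.

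Among enzymes that add or trim glycans, calls came from outside the list for hormones. Of 27 genes for the glycosylation of hormones 0 passed in limma and in the z-score model, and 6 had an unadjusted p under 0.05 (393 of 6461 autosomal genes were lower in boars at that level and 254 higher), of which 5 were lower in boars. STT3B, a catalytic subunit of the oligosaccharyltransferase, differed by -0.36 (SE 0.09, adjusted p = 0.134). Outside that list, GALNT10, which starts O-linked glycans, was between 6.96 and 7.54 in gilts (median 7.33) and between 5.96 and 6.90 in boars (median 6.19). Its groups did not overlap, and its difference was -0.91 (SE 0.14, adjusted p = 0.0136 from limma). PIGS, a subunit of the transamidase that attaches GPI anchors, did not overlap either, with a difference of -0.47 (SE 0.06, adjusted p = 0.00381). The Golgi sorting adaptor GGA2 differed by -0.21 (SE 0.04, adjusted p = 0.0446) and passed in 2 of 26 alternatives.

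HYAL3, a member of the hyaluronidase family, had the largest difference of the autosomal genes, each represented by its probeset of highest mean. The second FSHB probeset, at -4.52, was slightly farther apart. It was between 4.08 and 8.86 in gilts (median 7.75) and between 2.35 and 3.38 in boars (median 2.43). Boars lay at or near the lowest values of the array and in the other tissues the mean was at most 2.42, so the gene was measured above the floor mainly in the pituitaries of gilts. YLF21 had 4.08, and the other 6 gilts at least 6.84. The difference was -4.44 (SE 0.49, adjusted p = 0.00123 from limma), 21.7-fold with a 95% interval from 10.3 to 45.3, and since boars sit near the floor the true ratio may be larger. It passed in 26 of 26 alternatives, and with 1 pig left out it was between -5.21 (without YLF21) and -4.24 (without LWF06).

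A neighbour of HYAL3 passed as well. In the gene order of the RefSeq annotation of Sscrofa11.1, IFRD2 lies next to HYAL3. IFRD2, an interferon-related developmental regulator, was between 5.19 and 7.29 in gilts (median 6.88) and between 4.39 and 5.25 in boars (median 4.65), and only YLF21 fell within the range of the boars. Its difference was -1.76 (SE 0.27, adjusted p = 0.0124 from limma). NAT6 on the other side differed by -0.68 (SE 0.22, adjusted p = 0.355), with gilts between 3.42 and 4.76 and boars between 3.11 and 4.04. The hyaluronidases HYAL1 and HYAL2, next in order, differed by -0.00 (SE 0.02) and -0.32 (SE 0.24), and HYAL1 was near the floor in both sexes. TUSC2, GNAI2, RASSF1 and NPRL2 were between -0.27 and 0.14 and LOC100517372, the farthest measured, at -0.32 (SE 0.075, adjusted p = 0.123), and none passed. The neighbours were named for their place after the value of HYAL3 was seen, and whether probes of HYAL3 and IFRD2 share transcripts was not tested.

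**Figure D3:**
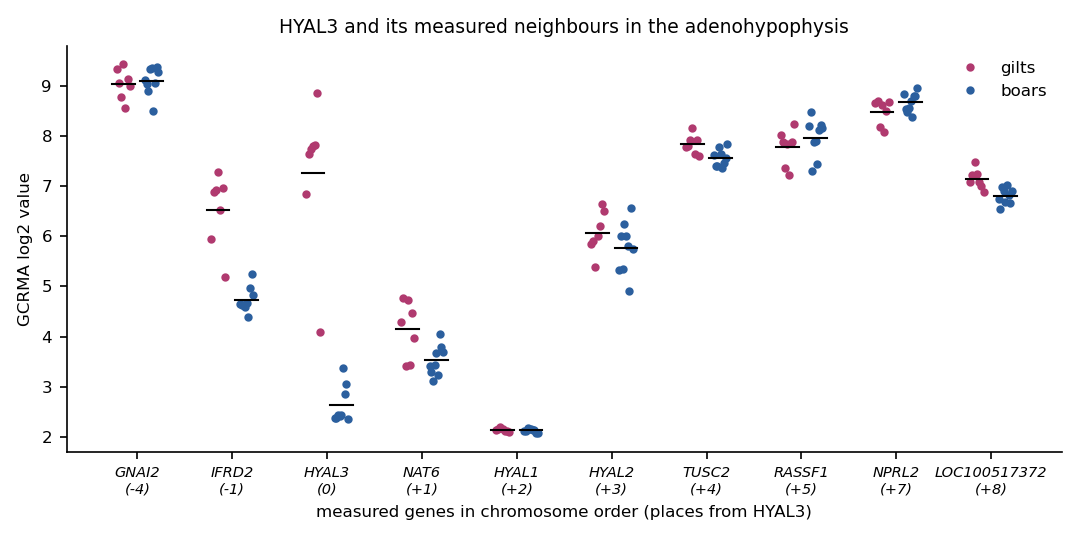
GCRMA log2 values of HYAL3 and the measured genes within 8 places of it in the gene order of Sscrofa11.1, 1 point per pig, with lines at the means of 7 gilts and 9 boars. The sexes do not overlap at HYAL3, overlap at IFRD2 through 1 gilt with a low value, and overlap at the other genes.

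No other gene of the hyaluronan, collagen and remodelling lists passed in limma. Of 11 genes for hyaluronan enzymes and receptors, HYAL3 alone passed (9.09%), and 8 of the 11 had a mean under log2 4. Of 43 collagens and structural matrix genes 0 passed in limma, with a median of -0.06, 2 at an unadjusted p under 0.05 and 1 called by the z-score model. Of 36 remodelling enzymes and inhibitors 0 passed, with a median of -0.02, 6 at an unadjusted p under 0.05 and 1 by the z-score model. A mean under log2 4 was found for 17 of the 43 and 16 of the 36. The abundant matricellular genes SPARC (-0.16, SE 0.13) and SPARCL1 (-0.16, SE 0.09) did not pass. SERPINE2, an inhibitor of serine proteases, was between 5.84 and 6.69 in gilts and between 4.47 and 6.0 in boars, a difference of -0.90 (SE 0.19, adjusted p = 0.0807). It was the remodelling gene that the z-score model called. The metalloproteinase inhibitor TIMP1, which is X-linked, differed by -0.43 (SE 0.11, adjusted p = 0.171).

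A pair of adhesion genes passed. SDC2, a heparan sulfate proteoglycan of the cell surface, was between 10.45 and 10.94 in gilts (median 10.87) and between 9.23 and 10.41 in boars (median 10.11). It was the only 1 of 21 integrins and matrix receptors to pass (4.76%), at -0.78 (SE 0.13, adjusted p = 0.0249 from limma), and it lost the call without any 1 of DUF13, DUF14, LWF05, LWF06, YLF21 and DUM15 (adjusted p up to 0.0680). A second SDC2 probeset with a mean of 9.18 gave -0.41 (SE 0.12, adjusted p = 0.296), and the mean over both, -0.59, lost the call (adjusted p = 0.0561). CDH1, the epithelial cadherin that also joins folliculostellate cells, was between 10.21 and 10.53 in gilts (median 10.32) and between 9.33 and 10.09 in boars (median 9.91). Its difference was -0.53 (SE 0.09, adjusted p = 0.0171), which was 0.0517 without YLF21 and 0.302 as the mean over its probesets (-0.71). Neither gene overlapped between the sexes.

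Muscle genes gave 1 call in limma from a long list. CKM, the muscle form of creatine kinase, was between 2.97 and 5.04 in gilts (median 4.33) and between 2.19 and 2.62 in boars (median 2.26). The boars lay near the floor of the array. The gilts were dim too, down to 2.97 in DUF13, though every gilt was above every boar. The difference was -1.74 (SE 0.21, adjusted p = 0.00245 from limma), and it passed in all 25 alternatives in which it was tested. Its mean of 3.09 kept it out of the fit without dim probesets. Of 60 striated muscle genes CKM alone passed in limma (1.67%, against 0.604% of the autosomal genes). In this list 42 genes had a mean under log2 4, and the other 41 of those dim genes lay between -0.33 and 0.20. The list had a median of 0.00. At an unadjusted p under 0.05, 2 were higher in boars and 3 higher in gilts, against 3.93% and 6.08% of all autosomal genes. The z-score model called 2, DES and CKM. DES, the intermediate filament of muscle, ranged from 6.67 to 8.55 in gilts and from 4.53 to 7.91 in boars, a difference of -1.48 (SE 0.56, adjusted p = 0.487). Of 10 regulators of myogenesis 0 passed in limma and in the z-score model, with 1 at an unadjusted p under 0.05. A mean under log2 4 was found for 7 of the 10. SNTB1, a syntrophin of the dystrophin complex that is not confined to muscle, was between 8.43 and 9.44 in gilts (median 8.95) and between 7.57 and 8.27 in boars (median 7.85). Its groups did not overlap, and the difference of -1.02 (SE 0.14, adjusted p = 0.00491) passed in 26 of 26 alternatives.

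Other genes higher in gilts came from several functions, grouped here after their values were seen. C1QTNF12, a secreted C1q and TNF related protein, was between 5.74 and 6.83 in gilts (median 6.6) and between 2.38 and 5.59 in boars (median 4.31), without overlap. Its difference was -2.27 (SE 0.38, adjusted p = 0.0201 from limma), or 4.81-fold, and it lost the call without DUF14, IBF22, LWF05, DUM15 or LWM02 (adjusted p up to 0.0526). MGMT, which repairs alkylated guanine in DNA, was between 5.32 and 7.16 in gilts (median 6.73) and between 4.16 and 6.15 in boars (median 4.80), and YLF21 alone among the gilts fell into the range of the boars. Its difference was -1.45 (SE 0.22, adjusted p = 0.0106). FGF12, an intracellular factor that binds sodium channels, was between 8.23 and 8.67 in gilts (median 8.46) and between 5.73 and 7.75 in boars (median 7.27). Its groups did not overlap, and the difference of -1.28 (SE 0.23, adjusted p = 0.0279) passed in 12 of 26 alternatives.

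Some of the called genes encode lysosomal enzymes, and no list of such genes was tested. HEXA, the alpha subunit of hexosaminidase, was between 9.52 and 10.06 in gilts (median 9.75) and between 8.89 and 9.39 in boars (median 9.20), without overlap, at -0.58 (SE 0.07, adjusted p = 0.00381 from limma). The cathepsin CTSC differed by -0.57 (SE 0.07, adjusted p = 0.00206), although its 3 other probesets did not pass and the mean over all of them gave -0.29. GGH, which removes glutamates from folates, differed by -0.60 (SE 0.11, adjusted p = 0.0261), and lost the call without DUF14, IBF25, DUM12, DUM15, IBM24 or LWM02 (adjusted p up to 0.075). CTSC and GGH overlapped between the sexes. The X-linked lysosomal galactosidase GLA was also higher in gilts (-0.41, SE 0.06, adjusted p = 0.0101).

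Enzymes of small-molecule metabolism were the retinal reductase RDH11 (-0.48, SE 0.07), the epoxide hydrolase EPHX1 (-0.69, SE 0.13), the prostaglandin reductase PTGR2 (-0.43, SE 0.08), the deglycating kinase FN3KRP (-0.48, SE 0.09) and the glycolytic enolase ENO1 (-0.29, SE 0.06). Of these RDH11 (adjusted p = 0.00938 from limma) kept its call with each pig left out, whereas EPHX1, PTGR2, FN3KRP and ENO1, with adjusted p of 0.0469 or 0.0472, passed in 2 or 3 of those 16 fits. RDH11 lay between 9.47 and 10.08 in gilts and between 9.06 and 9.47 in boars, so the groups met at 1 value. EPHX1 lay between 8.52 and 9.14 in gilts and between 7.6 and 8.69 in boars.

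Genes for transcription, transport and signalling made up the remainder. MED30, a subunit of the Mediator complex, was between 7.17 and 7.83 in gilts (median 7.41) and between 6.34 and 6.95 in boars (median 6.83), without overlap, at -0.68 (SE 0.10, adjusted p = 0.00987 from limma). The zinc finger protein ZPR1 differed by -0.90 (SE 0.16), the factor RFX1 by -0.60 (SE 0.12), the receptor GPRC5B by -0.98 (SE 0.16), and the small membrane protein SMIM22 by -0.95 (SE 0.14). A second SMIM22 probeset, dimmer at a mean of 5.44, gave 0.46 (SE 0.19, adjusted p = 0.597), so its probesets disagreed in sign. PDE6D, a carrier of prenylated proteins, and STRADB, a pseudokinase partner of LKB1, both differed by -0.52 (SE 0.09) without overlap. STRADB probesets with means of 8.02 and 6.48 gave -0.17 and -0.12 and did not pass, and the mean over its probesets, -0.22, lost the call. SLC25A24, a mitochondrial ATP-Mg carrier, and the chaperone MESDC2 differed by -0.37 (SE 0.06) and -0.35 (SE 0.06). A dim second SLC25A24 probeset with a mean of 2.98 gave 0.01, and the mean over both lost the call. MESDC2 and RFX1 each passed in 6 of 26 alternatives, PDE6D in 11 and ZPR1 in 15.

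The 6 genes higher in boars differed by small amounts. Beside POU1F1 they were COPZ2, a coat protein of vesicles between Golgi and endoplasmic reticulum (0.65, SE 0.10), the adhesion protein HEPACAM2 (0.64, SE 0.12), the imprinted neuronal growth suppressor NDN (0.33, SE 0.06), and the zinc finger genes ZNF655 (0.37, SE 0.06) and ZBED5 (0.18, SE 0.03). COPZ2 was between 6.86 and 7.29 in gilts and between 7.26 and 8.19 in boars, with the ranges touching (adjusted p = 0.01 from limma). HEPACAM2, whose mean of 11.27 in the adenohypophysis was 5.94 above that of the next tissue, was between 10.57 and 11.28 in gilts and between 10.83 and 11.85 in boars (adjusted p = 0.0472). HEPACAM2 passed in 8 of 26 alternatives, NDN in 9 and ZBED5 in 4.

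Of 223 X-linked genes measured, 4 (1.79%) passed, all higher in gilts. They were the deubiquitinase USP9X (-0.53, SE 0.05, adjusted p = 0.000357 from limma), the histone demethylase KDM6A (-1.02, SE 0.13, adjusted p = 0.00381), GLA and the kinase STK26 (-1.16, SE 0.21, adjusted p = 0.0300). KDM6A differed also in hypothalamus (-1.07) and thyroid gland (-1.0), with adjusted p of 0.00079 and 0.00168. USP9X lost its call in the z-score model and as the mean over its probesets, and GLA lost it in the z-score model. STK26 passed in 16 of 26 alternatives.

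**Figure D4:**
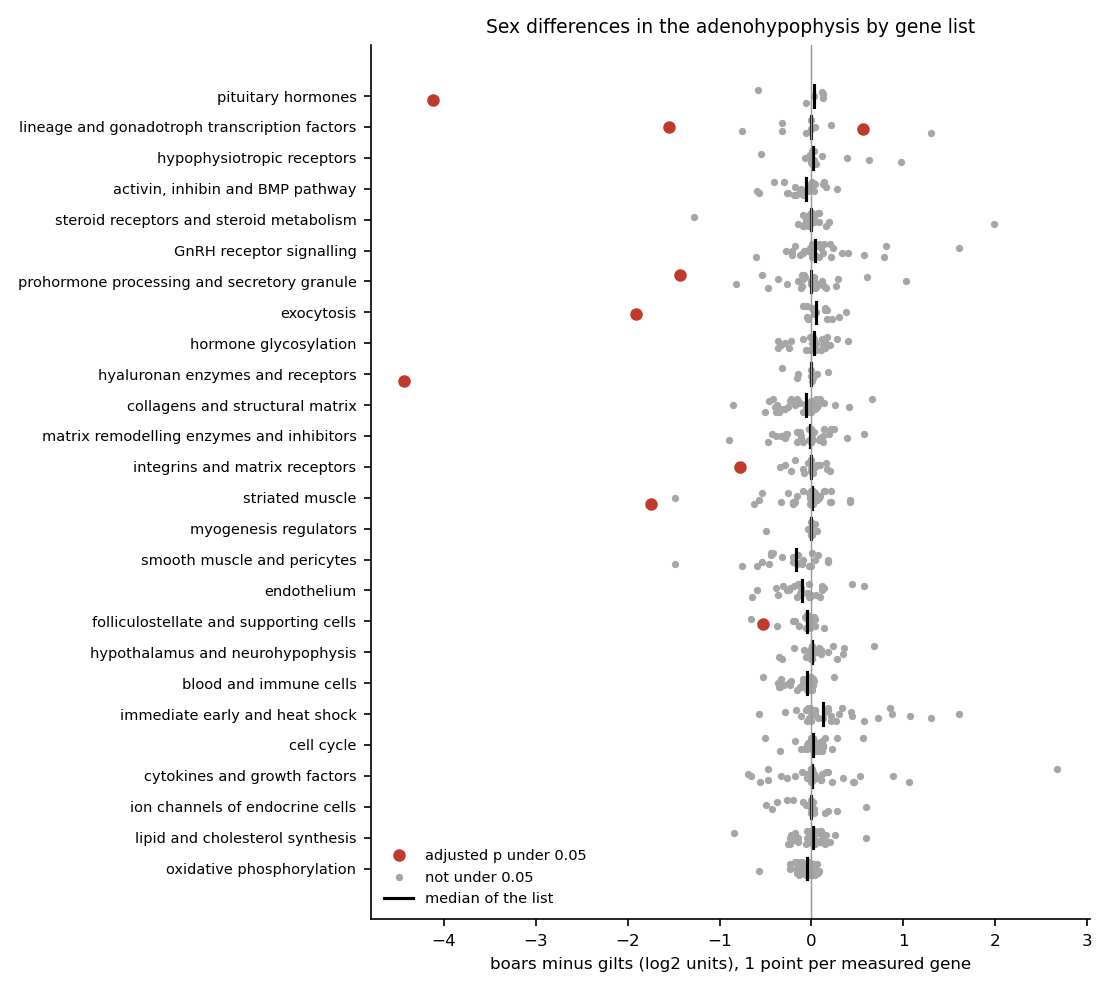
Boars minus gilts in the adenohypophysis for each measured gene of 26 gene lists, in log2 units, 1 point per gene, with a line at the median of each list. Red points passed an adjusted p of 0.05. The medians of the lists lie between -0.17 and 0.13, and no list has more than 2 red points.

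Markers of other cell types were read beside these results. Of 27 hypothalamic and neurohypophyseal genes 20 had a mean under log2 4 and 0 passed in limma or the z-score model, with 1 at an unadjusted p under 0.05. The glial genes GFAP and MOBP were spread alike, GFAP from 2.38 to 5.28 in gilts and from 2.36 to 5.85 in boars, and MOBP up to 7.12 and 7.32. Endothelial genes had a median of -0.10 over 29 genes, with 0 passing in limma or the z-score model and 5 at an unadjusted p under 0.05, of which 4 were lower in boars (CDH5, PECAM1, CLDN5 and VWF), where 6.08% of all autosomal genes were lower at that level. Their mean level per pig was between 4.17 and 4.44 in gilts and between 3.94 and 4.29 in boars. Of the 29 endothelial genes, 18 had a mean under log2 4. Smooth muscle and pericyte genes had the lowest median of the lists, -0.17 over 24 genes, with 0 passing in limma, 4 at an unadjusted p under 0.05 (TPM2, DES, ACTG2 and MYL9, all lower in boars) and 2 called by the z-score model. Their mean level per pig was between 5.75 and 6.39 in gilts and between 5.27 and 6.02 in boars. The part of vessel cells in the differences above was not tested.

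Folliculostellate and blood markers gave 1 call. Of 19 folliculostellate and supporting cell genes CDH1 alone passed in limma (5.26%), and the median was -0.05. At an unadjusted p under 0.05, 4 of the 19 were higher in gilts, against 6.08% of all autosomal genes, and 0 were higher in boars. The z-score model called 0 of this list. The abundant epithelial marker EPCAM differed by 0.03 (SE 0.05) and CLU, a secreted chaperone, by -0.20 (SE 0.05, adjusted p = 0.183). Of 34 blood and immune genes 0 passed in limma or the z-score model or at an unadjusted p under 0.05, with a median of -0.05. Haemoglobin beta, HBB, differed by -0.09 (SE 0.10). Immediate early and heat shock genes, which respond to many stimuli within a short time, had the highest median, 0.13 over 35 genes. Their mean level per pig was between 7.07 and 7.57 in gilts and between 7.15 and 8.38 in boars, 0 passed in limma, 3 had an unadjusted p under 0.05 and the z-score model called 6. EGR1, a mediator of the GnRH response of LHB, belonged here and was between 7.05 and 11.59 in gilts and between 7.94 and 12.55 in boars (1.31, SE 0.65, adjusted p = 0.751). The part of these genes in the other results was not tested. Of the cell cycle (42 genes), cytokine and growth factor (41), ion channel (21), lipid synthesis (39) and oxidative phosphorylation (47) genes 0 passed in limma, with medians between -0.05 and 0.02. At an unadjusted p under 0.05 these lists had 2, 8, 3, 4 and 5 members, against 10% of all autosomal genes, and the z-score model called 0, 3, 0, 1 and 0. A mean under log2 4 was found for 20, 20, 12, 8 and 0 of their genes. The 3' to 5' difference of the Gapdh control probesets, a sign of RNA breakdown, was between 1.5 and 1.84 in gilts and between 1.55 and 1.91 in boars.

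The difference between boars and gilts had the same sign in 4 of 4 breeds for all 39 genes, as it had for 16.4% of the autosomal genes. These genes were chosen on the same arrays, so the count describes them and does not test them. In the 33 genes higher in gilts the median difference was -0.70 in Duroc, -0.70 in Iberian, -0.90 in Large White and -0.50 in Youli pigs, and Youli had the smallest of the 4 differences in 19 genes. Youli had 1 gilt, YLF21, which was the lowest gilt for 12 of the 33. HYAL3 differed by -4.86, -5.35 and -5.44 in Duroc, Iberian and Large White and by -1.33 in Youli pigs. IFRD2 differed by -0.17 in Youli and by at least 1.77 in size in the others (-1.77 in Duroc). LWM02 was the lowest boar for 14 of the 33 genes and the highest for 0.

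A test of the difference between breeds called no member. In limma the sex by breed interaction passed for 1 probeset of 23999 (0.00417%), with 1032 at an unadjusted p under 0.05, and the smallest adjusted p among the 39 genes was 0.265. The probeset belonged to the neurotrophin receptor NTRK3, named after its value was seen. NTRK3 was near the floor in every boar, between 2.54 and 2.64, and in the Duroc and Iberian gilts, and at 4.34, 4.24 and 3.51 in LWF05, LWF06 and YLF21. Its 2 other probesets did not pass. The count of 1 was not stable, since leaving out a single pig gave between 1 (without YLM20) and 44 probesets (without LWM02).

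In the other tissues of the same pigs none of the 39 genes passed the test for sex, gonads apart. No autosomal gene (0%) passed for sex in limma in hypothalamus, thyroid gland or backfat, with 112, 322 and 145 of 6461 at an unadjusted p under 0.05, against 647 in the adenohypophysis, and 0, 9 and 0 called by the z-score model. Of the 39 genes, 0, 8 and 1 had an unadjusted p under 0.05 there. The median over the 33 genes higher in gilts was -0.02 in hypothalamus, -0.10 in thyroid gland and -0.02 in backfat, against -0.69 in the adenohypophysis.

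The difference between tissues was tested within pigs, as the adenohypophysis minus the mean of hypothalamus, thyroid gland and backfat. The test passed for 20 of 6461 autosomal genes (0.31%), of which 14 were among the 39. These were HYAL3, FSHB, C1QTNF12, IFRD2, GATA2, MGMT, SNTB1, GPRC5B, ZPR1, HEXA, MED30, FN3KRP, SLC25A24 and COPZ2. FSHB gave -4.09 (SE 0.53, adjusted p = 0.00881) and GATA2 -1.57 (SE 0.24, adjusted p = 0.0173). POU1F1 gave 0.47 (SE 0.16, adjusted p = 0.406), PCSK1 -1.38 (SE 0.31, adjusted p = 0.123) and CKM -1.69 (SE 0.66, adjusted p = 0.509), so a difference particular to the adenohypophysis was not established for them. Both tests use the same adenohypophysis arrays. FSHB, HYAL3 and C1QTNF12 had means of at most 2.42 in hypothalamus, thyroid gland and backfat. That is near the floor, where a sex difference could hardly show. For them the test largely repeats the adenohypophysis result. Over all probesets 63 (0.263%) passed, and leaving out 1 pig gave 23 without DUF14 or LWF05, 25 without IBF25, 27 without DUM15, 30 without LWM02, 33 without DUM12 and 40 without IBM23.

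**Figure D5:**
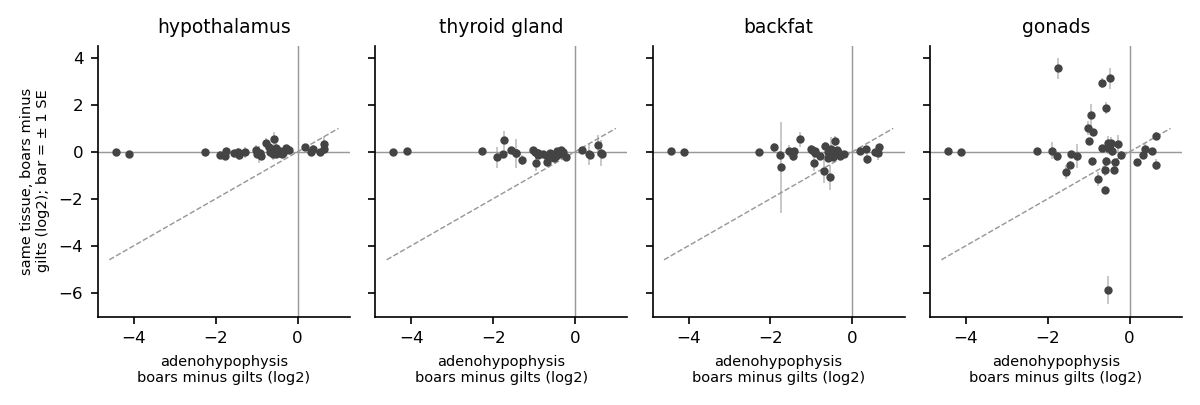
Boars minus gilts for the 39 genes in the adenohypophysis (horizontal axis) and in 4 other tissues (vertical axis), in log2 units, with bars of ± 1 SE for the vertical axis and a dashed line of equality. Points lie between -0.19 and 0.57 in hypothalamus, between -0.47 and 0.48 in thyroid gland and between -1.09 and 0.53 in backfat. They spread to both sides in the gonads, where testis is set against ovary.

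In the gonads, where testis was compared with ovary, 19 of the 39 genes differed, in a tissue where 36% of the autosomal genes did. Of these 10 were higher in ovary and 9 in testis, and 9 ran against their direction in the adenohypophysis. CDH1 (-5.89) and GGH (-1.61) were lower in testis than in ovary, whereas CKM (3.56), RDH11 (3.14), EPHX1 (2.94) and CTSC (1.87) were higher in testis than in ovary. FSHB and HYAL3 were near the floor in both gonads. The tissue levels of the 39 genes also differed, since 13 had their highest mean of the 5 tissues in the adenohypophysis, among them FSHB, POU1F1, HEPACAM2, C1QTNF12, HYAL3 and GATA2, which were more than log2 2 above the next tissue.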

How the data were processed

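Total RNA of 16 pigs was hybridised to Affymetrix Porcine GeneChips, 1 per tissue, and scanned with GCOS per the labels. GCRMA was run by the authors on the 80 arrays at once, and its log2 output, as deposited, was used without further scaling. Of 24123 probesets 124 controls were left out. The platform annotation gave 1 symbol to 10069 probesets, several to 198 and none to 13732; 10060 matched RefSeq genes of Sscrofa11.1, which placed them on autosomes, X or Y. The probeset of highest mean stood for a gene. Arrays were assigned to animals by title; 11 of 16 thyroid titles conflict with the breed and sex fields. Sex was tested with limma 3.58.1 (R 4.3.3), eBayes, breed as covariate, two-sided, with Benjamini-Hochberg adjustment over 23999 probesets at 0.05. Residual degrees of freedom were 11 per probeset. The tissue comparison used differences within animals: over the 2000 adenohypophysis probesets of largest spread after breed and sex, each of the 16 animals correlated best with its own other tissues (r from 0.301 to 0.687). The sex by breed interaction was tested by the moderated F. The z-score model is a refit made here, by restricted maximum likelihood, of the variance components model that the study fitted by sampling, so its counts are not the study's. The sex fit was first tested on simulated data, with 50 probesets shifted by each of log2 0.5, 1, 2 and 4. It called 28, 38, 50 and 50 of them, and also 15 unshifted probesets. No depth applies to arrays, and their number limits the precision. Alternatives were a trended robust prior, leaving out dim probesets, array medians, quantile normalization, no or random breed, no Youli pigs, each pig left out, a stricter threshold and other tissues.

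The genes and lists were chosen with earlier results of these data known. Named genes were FSHB, GATA2, PCSK1 and HYAL3, the 12 largest autosomal differences in each direction, called list members and up to 3 abundant uncalled ones per list; further genes were named after their values were seen, namely the remaining called genes, the neighbours of HYAL3, NTRK3, IGFBP1, X-linked genes and uncalled list members with low unadjusted p.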

Additional observations from a re-analysis of the deposited data

Results flagged for a closer look

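For each gene with values in the text, the highest and lowest pig of each sex was compared with the others by Dixon's test. It set a pig apart in 18 of 200 groups (9%), where chance gives about 1 in 20. LWM02 was set apart 5 times, as the lowest boar for GATA2 (5.97), QPCT (9.92), CDH1 (9.33), FGF12 (5.73) and CDH5 (5.06). YLF21 was set apart 4 times among the gilts, as the lowest for FSHB (13.15), HYAL3 (4.08) and GLA (8.33) and the highest for PGR (3.01). As YLF21 was the only Youli gilt, pig and breed cannot be told apart there. DUM12 was the highest boar for CKM (2.62), AVP (2.88) and OXT (1.74), all near the lowest values of the array. LWM04 was the highest boar for the glycosyltransferase MGAT4B (7.99) and the lowest for HEXA (8.89). IBF22 was the lowest gilt for GH1 (15.48) and the highest for MYL9 (5.55). LWF06 was the highest gilt for RAB27B (8.82), and DUF13 for KDELR3 (10.01).

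In limma the sex difference in the adenohypophysis differed from that in hypothalamus, thyroid gland and backfat for 63 probesets, and differed between breeds for 1 probeset, of NTRK3.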

How the results depend on the processing

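No gene among the 39 changed its sign in any of up to 26 alternatives. The 120 probesets that differed by sex became 48 at an adjusted p under 0.01, 65 without Youli pigs, 309 in the z-score model as refitted here and between 77 (without DUF14) and 121 (without LWM04) with 1 pig left out. The 39 autosomal genes became 10, 22 and 80 in the same settings, with 16 of the 80 shared, and between 20 and 37 with 1 pig left out. In the z-score model, 27 of the 80 were higher in boars. Scaling, dim probesets, the prior and the treatment of breed gave between 31 and 53 genes. The 63 probesets of the paired tissue comparison became 104 without dim probesets, 14 at an adjusted p under 0.01, 25 against hypothalamus alone, 18 against backfat alone, 55 without the thyroid gland, 117 with no replicate block, and between 23 and 68 with 1 pig left out. The 1 probeset of the interaction became 11 with a trended robust prior, 0 without dim probesets (limma), 0 after subtracting array medians, 16 after quantile normalization, and between 1 and 44 with 1 pig left out. The interaction could not be fitted without YLF21. The z-score model takes the sex effect as random, which draws sizes toward zero, and gave -2.81 for HYAL3 and -2.53 for FSHB. The causes of the other changes were not tested. With 16 pigs small differences can be missed, and 42.9% of probesets were dim.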

Other observations

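Of the listed genes that did not pass in limma, IGFBP1, a binding protein of insulin-like growth factors, was farthest apart. It was picked after its values were seen. It was between 2.83 and 4.92 in gilts (median 2.95) and between 3.21 and 8.54 in boars (median 5.80), a difference of 2.67 on the log2 scale with an SE of 0.78. The groups overlapped, and the adjusted p of 0.262 from limma did not pass, while the z-score model called the gene.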
